A study of Mus musculus with 12 samples.

Results

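Klk5 to Klk14 are 10 mouse genes of the tissue kallikrein family, secreted serine proteases made largely by the keratinocytes of the upper epidermis. They were chosen by gene symbol, as the run of neighbouring family members from Klk5 to Klk14, and all 10 were found among the 53465 gene identifiers of the count files. The choice was made with earlier results of these data known, so the tests below describe each gene and are no independent evidence for the set. Skin RNA was sequenced in bulk from mice with wild-type Foxp3 (Foxp3-WT, here WT) and mice with an altered Foxp3, written Foxp3-DE2 in the protocol, Foxp3-E2 in the sample labels and Foxp3dExon2 in the title (here DE2). Foxp3 is the lineage factor of regulatory T cells. The groups were untreated skin of WT mice, irradiated skin of WT mice, untreated skin of DE2 mice and irradiated skin of DE2 mice, with 3 libraries in each of the 4 groups. Irradiation meant 6 doses of ultraviolet B light (UVB) to a shaved patch of the flank. The dose is 200 mJ/cm2 in the sample labels and 100 mJ/cm2 in the protocol. The labels do not state age, sex or strain, nor whether the untreated site was shaved. Libraries are not linked to animals in the labels. The protocol speaks of a treated and an untreated site, so irradiated and untreated libraries may come from the same mice, which the fit does not model, and the tests measure the spread between libraries, which may in part be technical. The title places the comparison in skin inflammation that follows UVB in mice with the altered Foxp3.

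Kallikreins are made as inactive zymogens and are released into the space between the cells of the stratum corneum. There they are activated by cleavage, by each other and by other proteases, and cut the corneodesmosomes that hold the dead outer cells together, which lets these cells be shed. Klk5, Klk7 and Klk14 are the best known of these desquamation enzymes. Klk5 and Klk14 cut like trypsin and Klk7 like chymotrypsin. The inhibitor LEKTI, encoded by Spink5, holds them in check, and its loss causes Netherton syndrome, in which the epidermal barrier breaks down. Kallikreins can also activate cytokine precursors and protease-activated receptors, and so take part in skin inflammation.

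The 10 genes lie side by side on the plus strand of chromosome 7 (GRCm38, GENCODE M21 positions), from 43690418 to 43851181, a stretch of 160.8 kb. Klk14 stands first (43690418 to 43695536), then Klk13 (43712567 to 43727534), Klk12 (43768897 to 43773585), Klk11 (43774604 to 43779263) and Klk10 (43781035 to 43785410). Klk9 (43791891 to 43796757), Klk8 (43797577 to 43803826), Klk7 (43811294 to 43816359), Klk6 (43824499 to 43832030) and Klk5 (43841971 to 43851181) follow. RefSeq promoter windows (GRCm38.p6, from 250 bases before to 50 bases after a transcript's start) matched all 10 genes with 12 windows, since Klk6 and Klk11 have an extra start each. The 250 bases before the RefSeq start are shown for Klk13 and Klk6, the genes with the largest differences between irradiated and untreated DE2 skin, and for Klk5, which had the smallest. For Klk6 the window that lies first on the chromosome is shown. RefSeq and GENCODE starts differ for Klk5, Klk6, Klk10, Klk11 and Klk12. The Klk5 stretch lies inside the GENCODE span given above, and the Klk6 stretch runs past its GENCODE start. Capitals mark bases -35 to -25, counted back from the start, where a TATA box lies in promoters that have one.
Klk13 (chr7:43712317-43712566, plus strand): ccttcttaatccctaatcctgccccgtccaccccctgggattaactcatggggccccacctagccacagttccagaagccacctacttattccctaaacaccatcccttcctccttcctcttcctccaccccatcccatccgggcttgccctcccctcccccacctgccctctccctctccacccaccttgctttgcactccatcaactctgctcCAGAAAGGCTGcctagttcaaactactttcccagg
Klk6 (chr7:43824294-43824543, plus strand): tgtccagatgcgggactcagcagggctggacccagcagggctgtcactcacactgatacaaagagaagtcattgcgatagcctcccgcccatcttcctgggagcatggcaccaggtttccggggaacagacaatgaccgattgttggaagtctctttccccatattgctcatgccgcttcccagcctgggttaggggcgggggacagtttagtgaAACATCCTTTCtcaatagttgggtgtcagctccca
Klk5 (chr7:43842019-43842268, plus strand): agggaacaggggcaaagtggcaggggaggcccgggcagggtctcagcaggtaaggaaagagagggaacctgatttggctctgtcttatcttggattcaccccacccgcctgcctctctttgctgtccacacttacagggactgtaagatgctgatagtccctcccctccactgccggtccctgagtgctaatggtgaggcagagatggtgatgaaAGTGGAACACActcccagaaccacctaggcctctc

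None of the 3 stretches in capitals spells TATAAA. Across the 12 windows of the 10 genes, 5 motifs were searched on both strands, and none of them overlapped another match there. The TATA box letters TATAAA were in 0 of the 12 windows, against 13.6% of the 32851 RefSeq windows of that length. The AP-1 letters TGANTCA (N is any base) were also in 0 of 12, against 7.81% of all windows. A consensus NF-kB motif was in 0 of 12, against 0.411%. The C/EBP letters TTGCNNAA were in both windows of Klk11 and in no other, against 10.8% of all windows. The STAT letters TTCNNNGAA occurred once, as TTCTCAGAA at bases -238 to -230 of Klk10, against 8.3% of all windows. These are matches of letters, and binding was not measured.

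Total counts ran from 2809142 to 4741726 per library. Levels are given as CPM, the counts of a gene divided by its library's TMM-scaled total, and those compared between genes as CPM per kilobase of exon. The targeted gene was near the limit of detection. Foxp3 had 0 counts in the 9 libraries outside irradiated DE2 skin and 8 counts within it, so its counts check neither genotype label, and counts per gene do not show an exon. The samples were skin by their markers, with Krt10, Krt5 and Loricrin (Lor) counted in all 12 libraries. Other tissue varied with the groups. The 12 skeletal muscle markers summed to 25890 to 33140 and 12440 to 55090 CPM in untreated and irradiated WT libraries, and to 57730 to 129300 and 23790 to 30730 CPM in untreated and irradiated DE2 libraries. The 15 hair follicle markers summed to 136 to 703 CPM in untreated DE2 libraries and to at least 8187 CPM in each library of the other groups. Irradiated WT library 2 held the most muscle RNA of its group (55090 CPM). Untreated DE2 library 1 held the least of its group (57730 CPM). The number of members that passed in each comparison is also given without both libraries. In bulk RNA, fewer keratinocytes and less kallikrein RNA per keratinocyte cannot be told apart.

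Klk7, the chymotrypsin-like desquamation enzyme, had the highest mean level per length of exon of the 10 in every group. It was read at 484, 465 and 675 CPM in untreated and 772, 912 and 560 CPM in irradiated WT libraries, and at 638, 398 and 404 CPM in untreated and 1382, 1364 and 1486 CPM in irradiated DE2 libraries. The irradiated DE2 libraries stood above all others, and the other 3 groups overlapped. Klk9, also chymotrypsin-like, was read at 44.0, 23.1 and 55.9 CPM in untreated and 89.6, 99.9 and 42.3 CPM in irradiated WT libraries, and at 50.5, 46.1 and 30.3 CPM in untreated and 186, 257 and 231 CPM in irradiated DE2 libraries. It had the same layout as Klk7, with irradiated DE2 skin apart and the other groups overlapping.

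Klk5, the trypsin-like enzyme that can activate itself and other kallikreins, had the smallest differences with UVB in both genotypes. It was read at 78.2, 45.2 and 78.8 CPM in untreated and 82.7, 86.3 and 58.4 CPM in irradiated WT libraries, and at 120, 71.9 and 47.5 CPM in untreated and 84.6, 136 and 103.5 CPM in irradiated DE2 libraries. The 2 irradiated groups overlapped, and so did the 2 untreated groups. Klk14, the other trypsin-like activator, was the rarest member. It was read at 1.52, 0 and 2.29 CPM in untreated and 0.548, 0.984 and 0.912 CPM in irradiated WT libraries, and at 0, 0.566 and 0 CPM in untreated and 3.54, 10.2 and 3.65 CPM in irradiated DE2 libraries. The irradiated DE2 libraries were the highest 3 of the 12, on 65 counts in all, and untreated DE2 skin held 2 counts.

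Klk6, a trypsin-like enzyme first studied in the nervous system, spread most widely among the abundant members. It was read at 33.1, 44.5 and 78.4 CPM in untreated and 446, 343 and 164 CPM in irradiated WT libraries, and at 11.7, 20.4 and 14.5 CPM in untreated and 996, 1197 and 1118 CPM in irradiated DE2 libraries. No 2 groups overlapped: untreated DE2 was lowest, then untreated WT, irradiated WT and irradiated DE2. Klk10, another member of the cluster, had the same order of groups with no overlap. It was read at 30.7, 37.7 and 54.2 CPM in untreated and 103, 81.7 and 65.7 CPM in irradiated WT libraries, and at 10.97, 4.81 and 11.11 CPM in untreated and 192, 213 and 156 CPM in irradiated DE2 libraries. Klk13, a trypsin-like enzyme, was nearly absent from untreated DE2 skin, with 0, 5.09 and 0.834 CPM, and was read at 4.14, 6.06 and 7.09 CPM in untreated WT skin. It reached 37.3, 19.7 and 19.5 CPM in irradiated WT and 190, 238 and 213 CPM in irradiated DE2 libraries. Only its 2 untreated groups overlapped.

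Klk8, a trypsin-like enzyme also called neuropsin, was read at 90.6, 38.4 and 89.6 CPM in untreated and 171, 107 and 71.5 CPM in irradiated WT libraries, and at 94.1, 74.4 and 57.8 CPM in untreated and 353, 403 and 433 CPM in irradiated DE2 libraries. As for Klk7 and Klk9, only the irradiated DE2 libraries stood apart. Klk12, a rare member, was read at 0.218, 2.80 and 0 CPM in untreated and 5.75, 3.44 and 1.22 CPM in irradiated WT libraries, and at 0, 1.42 and 0.278 CPM in untreated and 17.1, 30.3 and 20.4 CPM in irradiated DE2 libraries. On TMM-scaled levels, Klk11 alone sorted by genotype rather than by treatment. It was read at 34.0, 39.8 and 53.2 CPM in untreated WT and 44.1, 51.9 and 49.6 CPM in irradiated WT libraries, against 108, 56.0 and 57.2 CPM in untreated DE2 and 100, 107 and 114 CPM in irradiated DE2 libraries. Each DE2 library was above each WT library, and the 2 groups within a genotype overlapped. The gap between genotypes was narrow, 53.2 against 56.0 CPM, and was absent on total counts. Untreated DE2 library 3 had 206 Klk11 counts of 4741726, and untreated WT library 3 had 255 of 4392982.

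**Figure D1:**
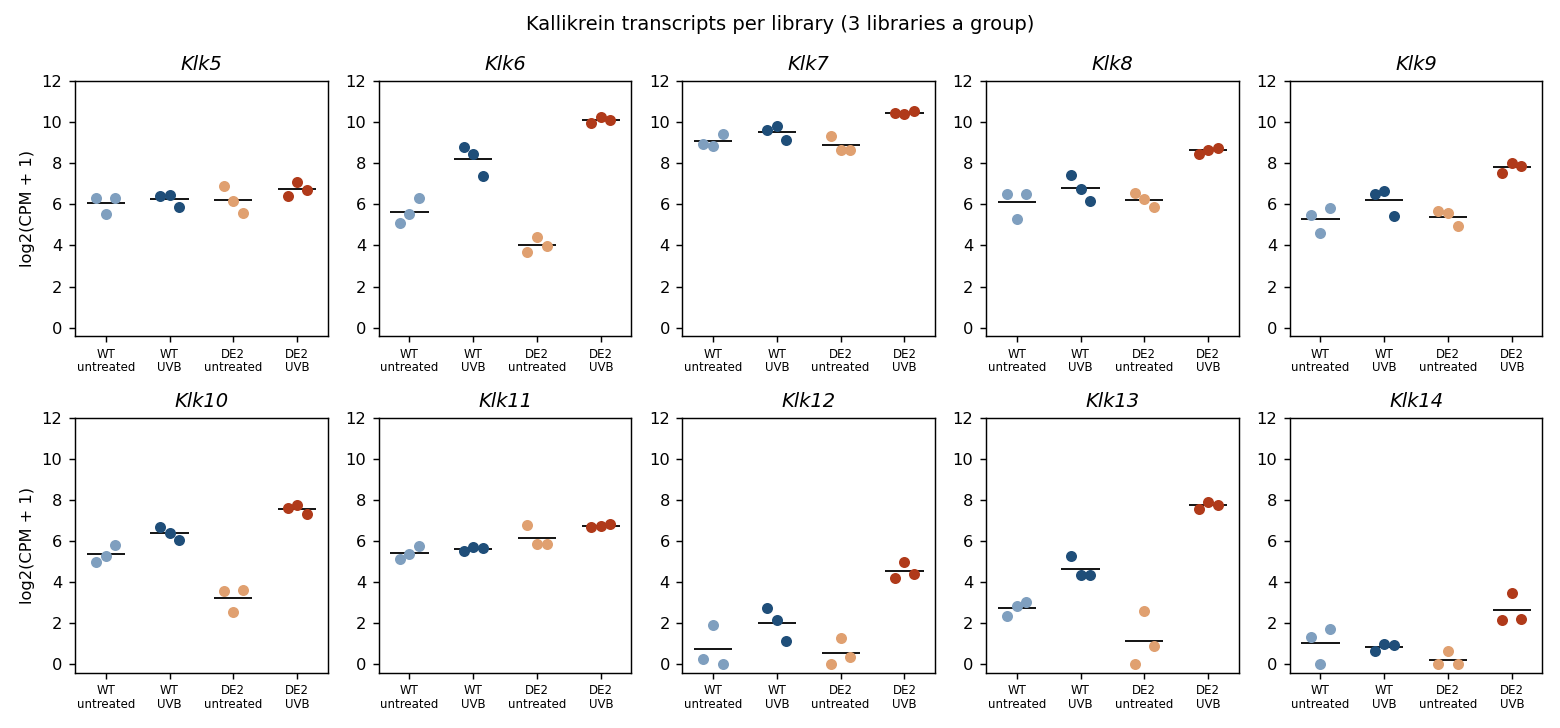
Level of each of the 10 kallikrein genes in the 12 libraries, as log2(CPM + 1) on the vertical axis, with 1 point per library, the 4 groups along the horizontal axis and a line at each group's mean. Klk6 and Klk10 have 4 groups that do not overlap, Klk11 is split by genotype on this TMM scale, and Klk5 has overlapping groups.

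All 10 genes had their highest mean in irradiated DE2 skin. The lowest mean was in untreated DE2 skin for 6 of them and in untreated WT skin for 4. The share of all genes with the same highest or lowest group was not computed, so these counts have no background beside them. Klk5 to Klk11 had at least 2.49 CPM, the level the low-count filter asks for, in all 12 libraries, and all 10 genes passed that filter. The filter asks for that level in 3 libraries of any group. Klk12 reached it in 3 libraries outside irradiated DE2 skin and Klk14 in 1, so Klk14 alone passed only through irradiated DE2 skin, and a high level there was a condition of its being tested. An antisense transcript, 2310002F09Rik, with 64 counts over the 12 libraries, shares 382 bases of exon with Klk8 and 287 with Klk14. With the strand setting of the counting not given in the sources used here, its reads and those of the 2 kallikreins cannot be told apart there.

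Irradiation of WT skin went with higher Klk6 and with smaller differences in most other members. Klk6 rose by 2.61 ± 0.37 on the log2 scale (SE; edgeR quasi-likelihood test, Benjamini-Hochberg adjusted p = 0.0261 over 15126 genes), a 6.10-fold difference. It was 1 of 3 genes that rose in this comparison, with Flg and Rbp2, and so 1 of 10 members rose against a background of 0.0198% of all genes. Klk13 followed with a difference of 2.14 ± 0.53 (adjusted p = 0.553) and Klk10 with 1.03 ± 0.28 (adjusted p = 0.701). Those 3 genes had all irradiated WT libraries above all untreated ones, a layout that 4.85% of all genes showed. Klk9 differed by 0.92, Klk8 by 0.68, Klk7 by 0.47, Klk11 by 0.20 and Klk5 by 0.17 on the log2 scale, none past the test and all with overlapping libraries. Klk12 differed by 1.80 ± 1.03 and Klk14 by -0.63 ± 1.18, with errors that reflect their few counts. The Klk6 call rests on single libraries: it was lost without untreated WT library 1 or 2, irradiated WT library 1 or any irradiated DE2 library. The DE2 libraries enter this comparison only through the shared estimate of spread. Without irradiated WT library 2 and untreated DE2 library 1 together, 2 members passed.

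In DE2 skin the response to UVB took in most of the cluster. The largest differences were in Klk13 and Klk6, 2 trypsin-like members that were scarce in untreated DE2 skin. Klk13 rose by 6.79 ± 0.64 on the log2 scale (adjusted p = 6.66e-06), Klk6 by 6.15 ± 0.43 (adjusted p = 4.66e-07) and Klk10 by 4.37 ± 0.33 (adjusted p = 7.04e-07). Klk9 rose by 2.41 ± 0.35 (adjusted p = 1.89e-04), Klk8 by 2.39 ± 0.34 (adjusted p = 1.80e-04) and Klk7 by 1.56 ± 0.25 (adjusted p = 5.01e-04). The size for Klk13 rests on untreated DE2 skin, where it was 8.96 without library 2 and 6.16 without library 1. Klk12 rose by 5.29 ± 1.13 (adjusted p = 0.00331), or by 7.10 without untreated DE2 library 2 and by 4.69 without library 1. Klk14 passed at adjusted p = 0.0184, on 65 against 2 counts, a ratio of 34.6 with an exact 95% interval of 9.20 to 292 that covers counting error only, and the call was lost without untreated DE2 library 1 (adjusted p = 0.0544) or 3 (0.0754) or irradiated DE2 library 2 (0.089). Klk5, at 0.44 ± 0.32 (adjusted p = 0.337), and Klk11, at 0.54 ± 0.26 (adjusted p = 0.136), did not pass. In all, 8 of 10 members rose, against 14.4% of all genes, and the same 8 had irradiated libraries that all lay above the untreated ones, against 22% of all genes. Leaving out Klk14, 7 of 9 rose. The members' median difference was 3.39 and that of all genes 0.02 on the log2 scale. Without untreated DE2 library 1 and irradiated WT library 2, 9 members passed: Klk5 (adjusted p = 0.0433) and Klk11 (adjusted p = 0.00586) joined, and Klk14 dropped out (adjusted p = 0.055).

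Irradiated DE2 skin also held more kallikrein RNA than irradiated WT skin. Klk13 was higher by 3.07 ± 0.50 on the log2 scale (adjusted p = 0.00483), an 8.38-fold difference. Klk6 was higher by 1.80 ± 0.35 (adjusted p = 0.0126), Klk8 by 1.76 ± 0.34 (adjusted p = 0.0112), Klk9 by 1.54 ± 0.34 (adjusted p = 0.0229), Klk10 by 1.17 ± 0.28 (adjusted p = 0.0367) and Klk11 by 1.14 ± 0.26 (adjusted p = 0.0283). Klk7 had a difference of 0.92 ± 0.25 (adjusted p = 0.0641), Klk12 of 2.69 ± 0.94 (adjusted p = 0.159) and Klk14 of 2.79 ± 1.18 (adjusted p = 0.268), and these did not pass. Klk5 had the smallest difference, 0.51 ± 0.32 (adjusted p = 0.512). So 6 of 10 members rose, against 2.35% of all genes, and in 9 of 10, all but Klk5, each DE2 library was above each WT library, against 11.9% of all genes. Leaving out Klk14, it was 8 of 9. The members' median was 1.65 and that of all genes -0.03. Several of these calls rest on single libraries. The count was 2 without irradiated WT library 3 or irradiated DE2 library 2, and 3 without irradiated WT library 1 or irradiated DE2 library 3. The Klk13 call held in each of the 12 fits that left out 1 library. Without irradiated WT library 2 and untreated DE2 library 1 together, 7 passed, with Klk7 at an adjusted p of 0.00823. With scaling to total counts in place of TMM factors 4 passed. Klk10 (adjusted p = 0.0694) and Klk11 (adjusted p = 0.0865) were then no longer called.

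Without irradiation the genotypes differed in the opposite direction for 2 members. Klk10 fell by 2.18 ± 0.32 on the log2 scale in untreated DE2 relative to untreated WT skin (adjusted p = 2.36e-04) and Klk6 fell by 1.75 ± 0.37 (adjusted p = 0.00411). These 2 of 10 compare with 11.2% of all genes that fell, and both had all DE2 libraries below all WT ones, as 20.4% of all genes did. Klk11 was higher in DE2 skin by 0.80 ± 0.26 (adjusted p = 0.0369), 1 of 10 against 11.8% of all genes. It was also the 1 member with DE2 libraries all above the WT ones, against 19.4% of all genes. These shares are near the background. Klk13 had a difference of -1.58 ± 0.68 (adjusted p = 0.108). Klk14 had 2 counts in DE2 against 18 in WT skin, a ratio of 0.135 with an exact 95% interval of 0.0152 to 0.565 that covers counting error only. Its fitted difference was -2.62 ± 1.39 (adjusted p = 0.192) and did not pass. Klk5, Klk7, Klk8 and Klk9 lay between -0.17 and 0.24, and Klk12 at -0.81 ± 1.21. Scaling to total counts in place of TMM factors lowered the fitted differences in this comparison. The mean scaling factors shifted by 0.41 on the log2 scale, and single genes by similar but not identical amounts. With total counts Klk13 passed (-2.01, adjusted p = 0.0338), Klk11 did not (0.45, adjusted p = 0.297), and Klk5, Klk8 and Klk9 turned negative. Klk11 was also not called without untreated DE2 library 1, untreated WT library 1 or 2, irradiated WT library 3, or irradiated DE2 library 1 or 2. With neither untreated DE2 library 1 nor irradiated WT library 2 in the fit, 2 members passed, Klk6 and Klk10.

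**Figure D2:**
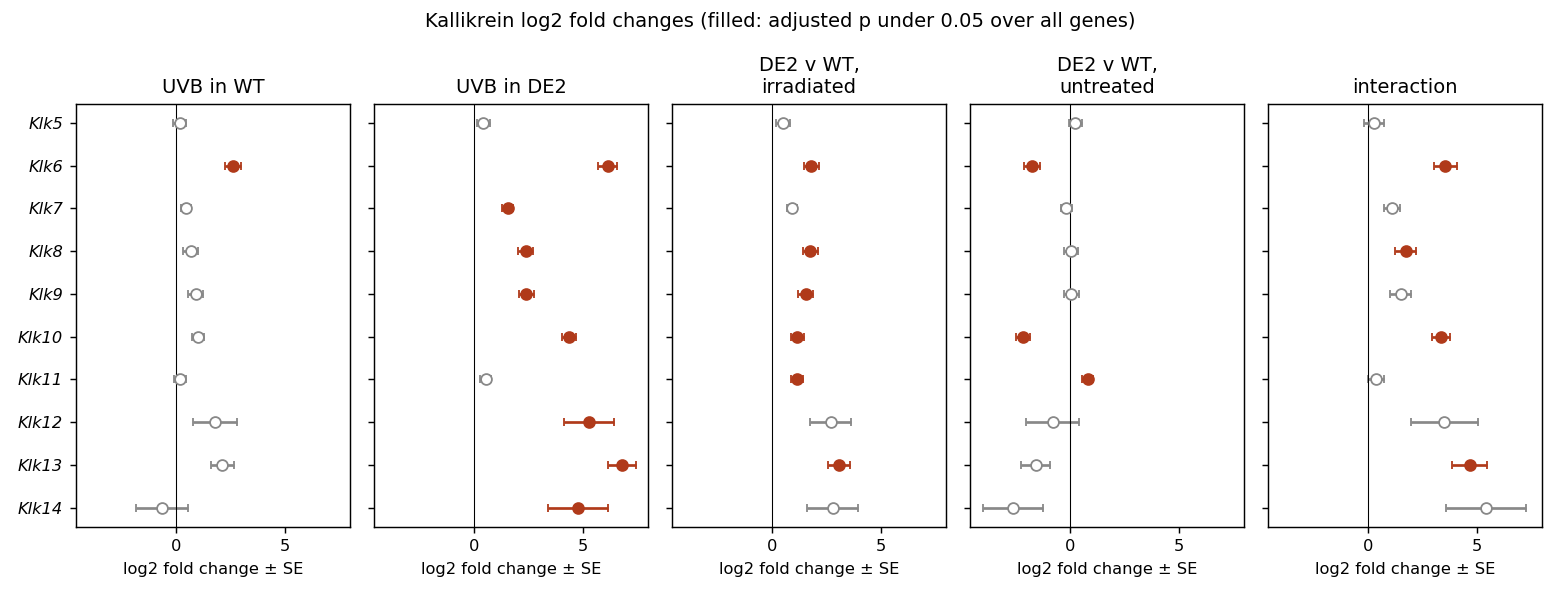
Log2 fold change of each kallikrein gene (points) with its standard error (bars) in 5 comparisons, filled where the adjusted p over all genes is under 0.05. UVB in DE2 has 8 filled points, all to the right of 0, while the comparison of untreated skin has Klk6 and Klk10 on the left and Klk11 on the right.

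The response to UVB was tested for a difference between the genotypes. It was larger in DE2 skin for Klk13, by 4.65 ± 0.82 on the log2 scale (adjusted p = 0.00326), for Klk6, by 3.55 ± 0.51 (adjusted p = 5.77e-04), for Klk10, by 3.35 ± 0.42 (adjusted p = 1.96e-04), and for Klk8, by 1.71 ± 0.47 (adjusted p = 0.0316). The value for Klk13 was 6.81 without untreated DE2 library 2 and 4.02 without untreated DE2 library 1. These 4 of 10 compare with 5.64% of all genes. For Klk6 and Klk10 the lower level in untreated DE2 skin and the higher level in irradiated DE2 skin both enter this value, since the interaction uses the same libraries as the other comparisons. Klk9 (1.49 ± 0.48, adjusted p = 0.0581), Klk7 (1.09 ± 0.35, adjusted p = 0.0613) and Klk14 (5.41 ± 1.82, adjusted p = 0.0694) did not pass. Klk12 (3.50 ± 1.53, adjusted p = 0.158), Klk11 (0.34 ± 0.36, adjusted p = 0.61) and Klk5 (0.27 ± 0.45, adjusted p = 0.764) did not either. The count was 6 without irradiated WT library 2 and untreated DE2 library 1 together. The Klk8 call was lost without untreated WT library 1 or 3, irradiated WT library 2, untreated DE2 library 2 or 3, or irradiated DE2 library 2 or 3.

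The hair follicle markers moved with several of these differences. All 15 fell in untreated DE2 relative to untreated WT skin and all 15 rose with UVB in DE2 skin, while 3 fell in irradiated DE2 relative to irradiated WT skin. With the mean level of these markers as a covariate, 0 members passed for UVB in DE2, for untreated skin and for the interaction, and 1 passed for irradiated DE2 against WT skin. The comparisons with 0 passing all use untreated DE2 skin, whose libraries alone had low values of this covariate. The covariate and that group can hardly be told apart in this fit, so the loss of calls there decides nothing. In that fit Klk6 had a difference of 7.53 (adjusted p = 0.199) and Klk13 of 11.46 (adjusted p = 0.222) for UVB in DE2 skin, while Klk7 had 0.44 (adjusted p = 0.992), Klk8 2.41 (adjusted p = 0.828), Klk9 3.03 (adjusted p = 0.713) and Klk10 3.02 (adjusted p = 0.662). Skeletal muscle markers fell with UVB in DE2 skin, 12 of 12. With their sum as a covariate 6 members passed there, Klk12 (adjusted p = 0.0874) and Klk14 (adjusted p = 0.244) no longer. The 8 markers of stressed keratinocytes, among them Krt6a, Krt16 and S100a8, summed to 1223 to 1931 and 2922 to 4769 CPM in untreated and irradiated WT libraries, and to 634 to 1164 and 22660 to 28050 CPM in untreated and irradiated DE2 libraries. All 8 rose with UVB in DE2 skin. Markers of granular and cornified keratinocytes, the layer that makes kallikreins, summed to 3238 to 5273, 3241 to 5466, 5434 to 8473 and 6663 to 7335 CPM in the same groups. Of these 9 markers, 4 rose and 3 fell with UVB in DE2 skin. The 6 basal keratinocyte markers summed to 5987 to 11400 CPM in untreated and 15930 to 21100 CPM in irradiated DE2 libraries. Of these 6, Krt14 alone rose with UVB in DE2 skin, from a mean of 4035 to 15620 CPM, while Krt15 fell by 3.39 and Col17a1 by 1.28 on the log2 scale. The part of these cell types in the kallikrein differences was not tested.

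Because the members rose to different extents, the make-up of the cluster's RNA changed. The 10 genes together summed to 866 ± 205 CPM in untreated WT, 1497 ± 403 in irradiated WT, 778 ± 222 in untreated DE2 and 3779 ± 241 in irradiated DE2 skin (SD, n = 3). Per length of exon, Klk7 made up 56.4% ± 3.16 (SD, n = 3) of the members' RNA in untreated WT skin and 55.3% ± 3.18 in untreated DE2 skin. Its share was 44.6% ± 5.41 in irradiated WT and 32.6% ± 2.46 in irradiated DE2 skin. Klk6 went the other way, from 6.62% ± 1.78 to 22.6% ± 5.05 in WT and from 2.41% ± 1.06 to 31.8% ± 0.86 in DE2 skin. Klk13 made up 0.50% and 0.22% of the untreated and 1.25% and 4.05% of the irradiated WT and DE2 totals. Klk11 and Klk5, which did not pass for UVB in DE2, made up 10.7% and 12.6% of the untreated DE2 total and 3.19% and 3.50% of the irradiated one.

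The order of levels per kilobase of exon shows the same change. In untreated WT skin Klk7 led at 286 ± 61.5 CPM per kilobase, followed by Klk5 (50.4 ± 14.4), Klk8 (47.3 ± 19.4) and Klk6 (34.4 ± 15.6). Klk10 (29.8 ± 8.78), Klk11 (28.9 ± 6.70) and Klk9 (27.8 ± 11.3) came next, and these 6 do not differ from their neighbours beyond the spread. Klk13 (2.51 ± 0.65), Klk14 (1.001 ± 0.92) and Klk12 (0.841 ± 1.30) were far lower. In irradiated WT skin Klk6 (210 ± 94.3) stood second to Klk7 (395 ± 93.6), and in irradiated DE2 skin the 2 were level, at 729 ± 66.9 and 745 ± 34.7 CPM per kilobase. Klk8 came next there (257 ± 26.2), then Klk9 (152 ± 24.1) and Klk10 (136 ± 21.1), which overlap within their SD, and Klk13 (93.0 ± 10.6), Klk5 (80.8 ± 19.4) and Klk11 (73.0 ± 4.68), which lie close together. In untreated DE2 skin Klk6 (10.3 ± 2.93) and Klk10 (6.53 ± 2.62) ranked below Klk11 (50.2 ± 20.1) and Klk9 (28.7 ± 7.19).

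**Figure D3:**
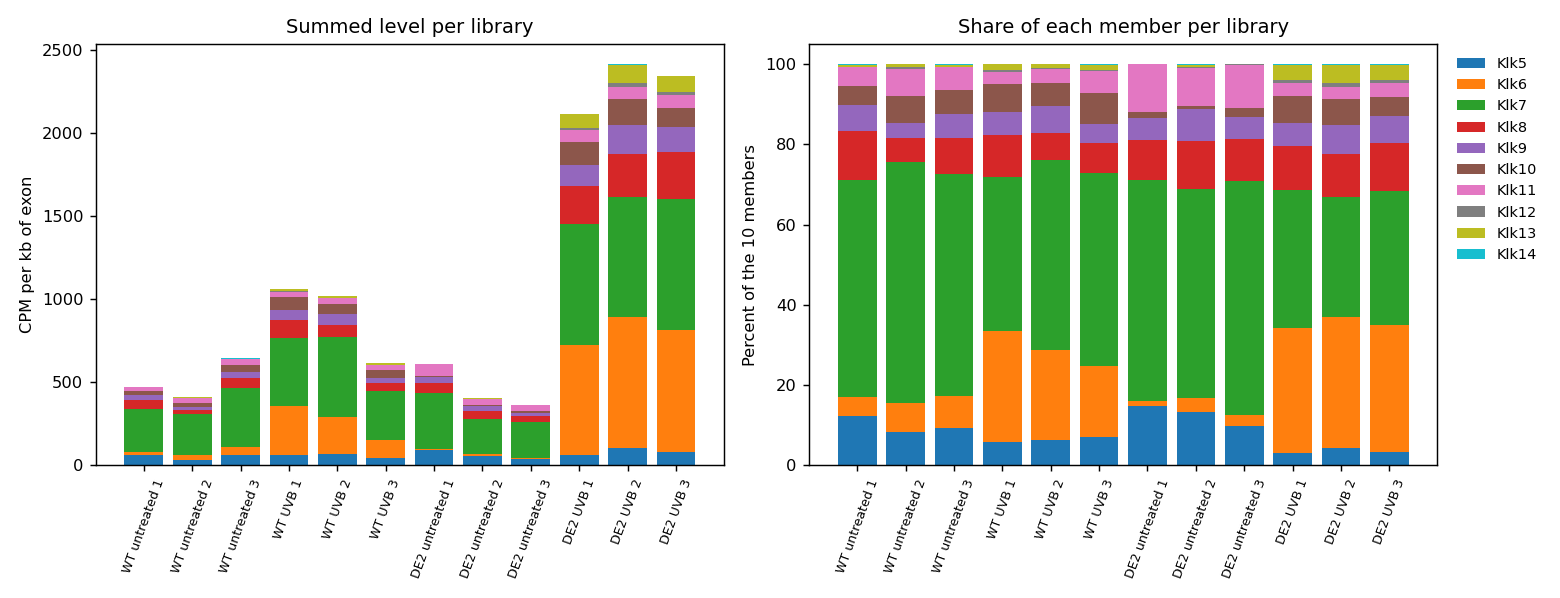
Left, summed level of the 10 kallikrein genes in each library in CPM per kilobase of exon, stacked by gene. Right, the percent of that sum from each gene, with Klk7 above 50% in the untreated libraries and Klk6 near 32% in the irradiated DE2 libraries.

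Along the cluster, Klk14 to Klk12 and Klk10 to Klk6 rose with UVB in DE2 skin. Klk11, which lies between these runs, and Klk5, at the far end, did not pass. Klk13, with the largest difference for UVB in DE2 skin, lies at the Klk14 end, 22.1 kb from the start of Klk14, and Klk6, with the second largest, lies 134.1 kb from it, next to Klk5. Klk11, split by genotype on TMM-scaled levels, lies between Klk12 and Klk10, which both rose with UVB in DE2 skin. Beyond Klk5 the next family member, Klk4, starts 190.7 kb from the start of Klk14 and had 0 counts in all 12 libraries, which allows a level of up to 0.0642 CPM over these libraries (3 counts, counting error only). Of 16 other tissue kallikrein genes (Klk1, the Klk1b genes, Klk4 and Klk15), 12 had 0 counts and the other 4 had 23 counts in all, against 77412 counts for the 10 members. None of the 16 passed the filter. Ctu1, the gene ahead of Klk14 on the map, is no kallikrein, and its difference for UVB in DE2 skin was 0.58 on the log2 scale (adjusted p = 0.462).

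**Figure D4:**
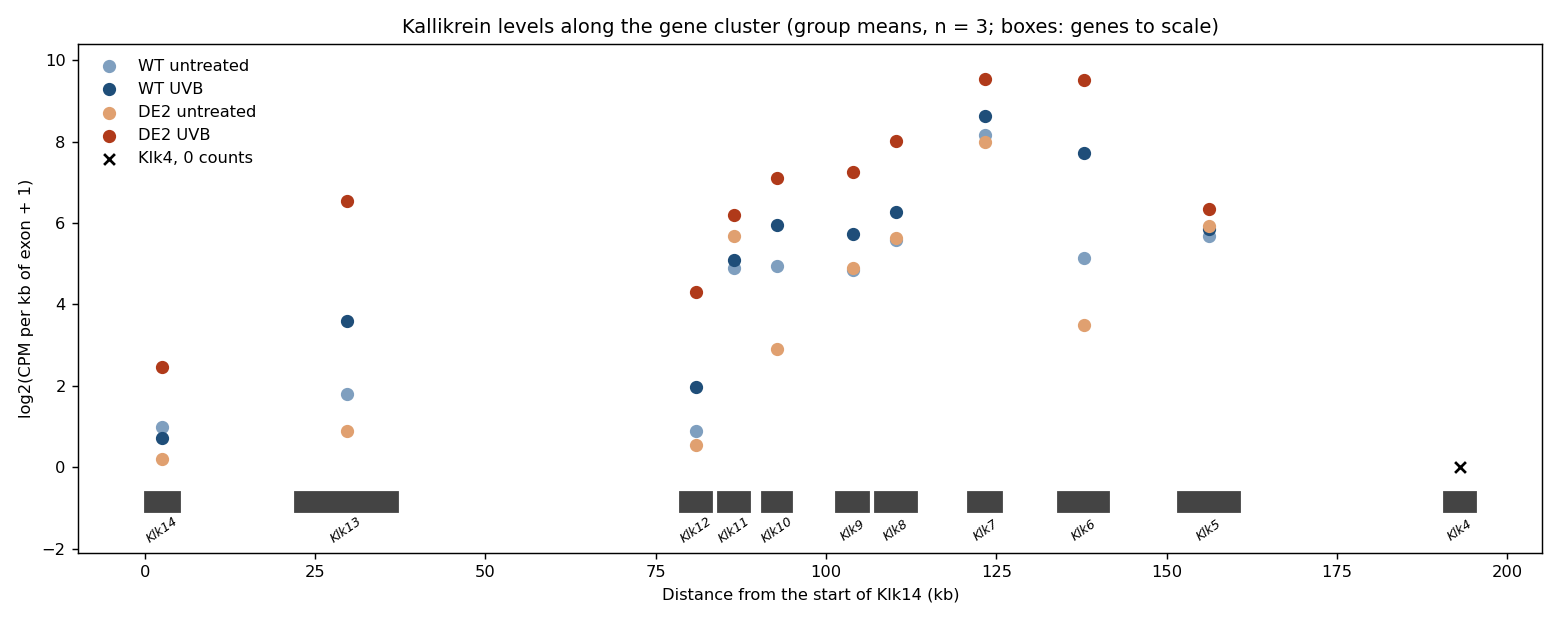
Mean level (log2 of CPM per kilobase of exon + 1, n = 3 a group) of each member against its distance in kb from the start of Klk14, with gene bodies drawn to scale below. The irradiated DE2 point is the highest at each of the 10 genes, and Klk4, further along, had 0 counts.

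Over the 12 libraries the levels of most members ran together, much less so once the group means were taken out. The Pearson correlation of log2 CPM with the mean of the other members over the 12 libraries was 0.975 for Klk9, 0.962 for Klk7, 0.951 for Klk8 and 0.911 for Klk6, and lowest for Klk5 (0.63) and Klk11 (0.582). The closest pair was Klk8 and Klk9 (0.977), neighbours on the chromosome, and Klk6 and Klk13 (0.956), which are not neighbours, also ran together. The weakest was Klk10 and Klk11 (0.294). These values describe libraries that fall into 4 groups and share their depth and tissue make-up. The median over pairs was 0.756, and after the group means were taken out it was 0.271. The 8 genes outside the set whose levels ran closest to the members' mean were 2610528A11Rik (r = 0.981), Csta1, a cysteine protease inhibitor of the cornified envelope (0.976), the fatty acid elongase Elovl7 (0.973) and Ggh (0.969). Ggct (0.968), the retinol carrier Rbp2 (0.966), the glycolipid carrier Gltp (0.965) and the retinoic acid carrier Crabp2 (0.964) completed them. They were taken from 13734 genes whose mean log2 CPM was 1 or more, of which 94 had r over 0.9. The mean level of 2610528A11Rik was 3.09, 16.6, 3.59 and 167 CPM in untreated WT, irradiated WT, untreated DE2 and irradiated DE2 skin, and that of Rbp2 was 5.89, 25.1, 7.75 and 181 CPM. Csta1 ran from 41.1 CPM in untreated to 217 CPM in irradiated DE2 skin.

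Spink5, the gene of the inhibitor LEKTI, did not pass in any of the 5 comparisons. Its level was 346 ± 89.7, 338 ± 91.1, 498 ± 145 and 578 ± 27.9 CPM in untreated WT, irradiated WT, untreated DE2 and irradiated DE2 skin (SD, n = 3). It differed by 0.22 ± 0.26 on the log2 scale for UVB in DE2 skin (adjusted p = 0.58) and by 0.77 ± 0.26 for irradiated DE2 against WT skin (adjusted p = 0.145). The summed kallikrein level per kilobase was 7.17 ± 1.39 times that of Spink5 in untreated WT, 12.7 ± 1.36 times in irradiated WT, 4.42 ± 0.28 times in untreated DE2 and 19.0 ± 2.08 times in irradiated DE2 skin. The 4 groups of summed ratios did not overlap, which does not hold for each member. In the same order, the ratio to Spink5 was 0.693 ± 0.030, 0.815 ± 0.069, 0.560 ± 0.13 and 0.673 ± 0.18 for Klk5. For Klk7 it was 4.07 ± 0.95, 5.63 ± 0.25, 2.44 ± 0.019 and 6.18 ± 0.53. The irradiated groups overlapped for both. Between irradiated WT and DE2 skin Klk6 went from 2.90 ± 0.93 to 6.06 ± 0.78, and Klk14, on few counts, from 0.00967 ± 0.0044 to 0.0379 ± 0.025. The direction of the summed ratio depends on the gene set beside the kallikreins. Relative to Krt10, a keratin of the suprabasal epidermis, the summed ratio was 1.12 ± 0.20 and 2.35 ± 0.20 in untreated and irradiated WT skin and 0.649 ± 0.0081 and 7.13 ± 1.98 in untreated and irradiated DE2 skin. Relative to Krt16, a keratin of stressed epidermis, it was lower with UVB in both genotypes, at 14.8 ± 8.97 and 2.15 ± 0.62 in WT and 12.8 ± 8.48 and 0.557 ± 0.050 in DE2 skin. Both keratins themselves changed with UVB in DE2 skin, Krt10 by -1.085 ± 0.31 (adjusted p = 0.018) and Krt16 by 6.15 ± 0.75 (adjusted p = 7.07e-05). Each ratio therefore also carries the change of its denominator. Of 11 listed inhibitors of skin serine proteases, 9 were tested. With UVB in DE2 skin 5 rose and 1 fell, where 14.4% of all genes rose and 13.4% fell, with a median difference of 1.62 against 0.02 for all genes. In irradiated DE2 against WT skin 4 rose, where 2.35% of all genes rose and 0.608% fell. In untreated skin 2 rose and 1 fell, near the 11.8% and 11.2% of all genes that did. A larger response in DE2 skin was found for 2, where 5.64% of all genes were higher and 4.84% lower in the interaction, and 0 passed for UVB in WT, where 0.0198% of all genes rose. Slpi, a secreted inhibitor of neutrophil elastase, rose by 5.50 ± 0.60 with UVB in DE2 skin (adjusted p = 1.51e-05) and was 3.72 ± 0.52 higher in irradiated DE2 than WT skin (adjusted p = 0.00165). Wfdc12, of the same protein family, rose by 5.92 ± 0.77 (adjusted p = 7.20e-05) and Spink12, a relative of Spink5, by 6.27 ± 1 (adjusted p = 4.25e-04) with UVB in DE2 skin. Serpina12, vaspin, a serpin that inhibits Klk7, fell by 1.34 ± 0.24 (adjusted p = 0.00103) in that comparison. Wfdc12 averaged 0.362, 2.66 ± 1.99 and 0.563 CPM in untreated WT, irradiated WT and untreated DE2 skin, against 34.8 CPM in irradiated DE2 skin. It passed the low-count filter only through irradiated DE2 skin, so a high level there was a condition of its being tested. The inhibitors counted as higher with UVB in DE2 skin and in irradiated DE2 against WT skin include Wfdc12.

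Of 16 listed proteases that can activate kallikreins or act beside them in epidermis, 12 were tested. With UVB in DE2 skin 7 rose, against 14.4% of all genes, and 0 passed with UVB in WT skin. The median difference with UVB in DE2 skin was 0.81 against 0.02 for all genes. Among the 7 is Tmprss11d, with means of 0.208, 1.64 ± 2.85 and 0 CPM in untreated WT, irradiated WT and untreated DE2 skin. Its mean was 5.84 CPM in irradiated DE2 skin. Tmprss11d passed the filter only through irradiated DE2 skin, so a high level there was a condition of its being tested. In irradiated DE2 against WT skin 1 rose and 1 fell, against 2.35% and 0.608% of all genes. In untreated skin 1 rose and 3 fell, against 11.8% and 11.2%, and 2 had a larger response in DE2 skin, against 5.64%. With 12 genes, counts of 1 to 3 are few to set beside these shares. St14, matriptase, which can activate kallikrein zymogens, was at 262 ± 46.8, 314 ± 47.5, 48.0 ± 6.498 and 168 ± 5.89 CPM in untreated WT, irradiated WT, untreated DE2 and irradiated DE2 skin. It fell by 2.45 ± 0.20 in untreated DE2 relative to WT skin (adjusted p = 1.01e-06), rose by 1.81 ± 0.20 with UVB in DE2 skin (adjusted p = 1.40e-05) and fell by 0.90 ± 0.19 in irradiated DE2 relative to WT skin (adjusted p = 0.0178). Its direction between irradiated groups was thus opposite to that of the 6 kallikreins that passed there. Tmprss11e, a membrane protease of epidermis, had 3 counts in untreated DE2 skin against 196 in irradiated DE2 skin, a ratio of 69.6 with an exact 95% interval of 23.5 to 340 that covers counting error only. Its fitted difference was 5.94 ± 0.75 (adjusted p = 5.20e-05). Its mean of 18.47 CPM in irradiated DE2 skin was near the WT levels, 18.55 CPM in untreated and 29.47 CPM in irradiated skin. Untreated DE2 skin was the group apart, with 3 counts against 254 in untreated WT skin and a fitted difference of -5.95 ± 0.74 (adjusted p = 5.77e-05). Tmprss4 was higher by 1.93 ± 0.30 in irradiated DE2 than WT skin (adjusted p = 0.00343), and Prss27 rose by 3.77 ± 0.72 with UVB in DE2 skin (adjusted p = 0.00164).

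Of 14 listed candidate substrates, corneodesmosome proteins, filaggrins, cytokine precursors and lipid enzymes, 13 were tested. With UVB in DE2 skin 8 rose and 1 fell, against 14.4% and 13.4% of all genes, with a median difference of 1.71 against 0.02 for all genes. With UVB in WT skin 1 rose, against 0.0198%. In irradiated DE2 against WT skin 2 rose and 1 fell, against 2.35% and 0.608% of all genes. In untreated skin 1 rose, against the 11.8% of all genes, and in the interaction 2 were higher and 1 lower, against 5.64% and 4.84%. Dsg1b, one of the desmosomal cadherins cut in desquamation, rose by 3.36 ± 0.46 with UVB in DE2 skin (adjusted p = 1.10e-04) and was higher by 2.00 ± 0.43 in irradiated DE2 than WT skin (adjusted p = 0.0204). Cdsn, corneodesmosin, did not pass in any of the 5 comparisons, with a difference of 0.60 ± 0.26 for UVB in DE2 skin (adjusted p = 0.0925). The 2 filaggrin genes diverged. Flg rose by 1.96 ± 0.28 with UVB in WT (adjusted p = 0.0261) and by 2.79 ± 0.29 in DE2 skin (adjusted p = 9.47e-06), while Flg2 fell by 3.60 ± 0.36 in DE2 skin (adjusted p = 6.67e-06) and by 2.12 ± 0.34 in irradiated DE2 relative to WT skin (adjusted p = 0.00392). Il1b, whose precursor is cut to an active cytokine, rose by 6.93 ± 0.79 with UVB in DE2 skin (adjusted p = 3.80e-05) and was higher by 6.13 ± 0.75 in irradiated DE2 than WT skin (adjusted p = 0.0011). Of the 4 protease-activated receptor genes, F2r and F2rl1 were tested and neither passed in any comparison. F2rl1, the receptor that Klk5 and Klk14 can activate, was at 13.2 ± 2.20, 11.3 ± 0.52, 10.6 ± 3.83 and 9.91 ± 3.70 CPM in untreated WT, irradiated WT, untreated DE2 and irradiated DE2 skin.

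**Figure D5:**
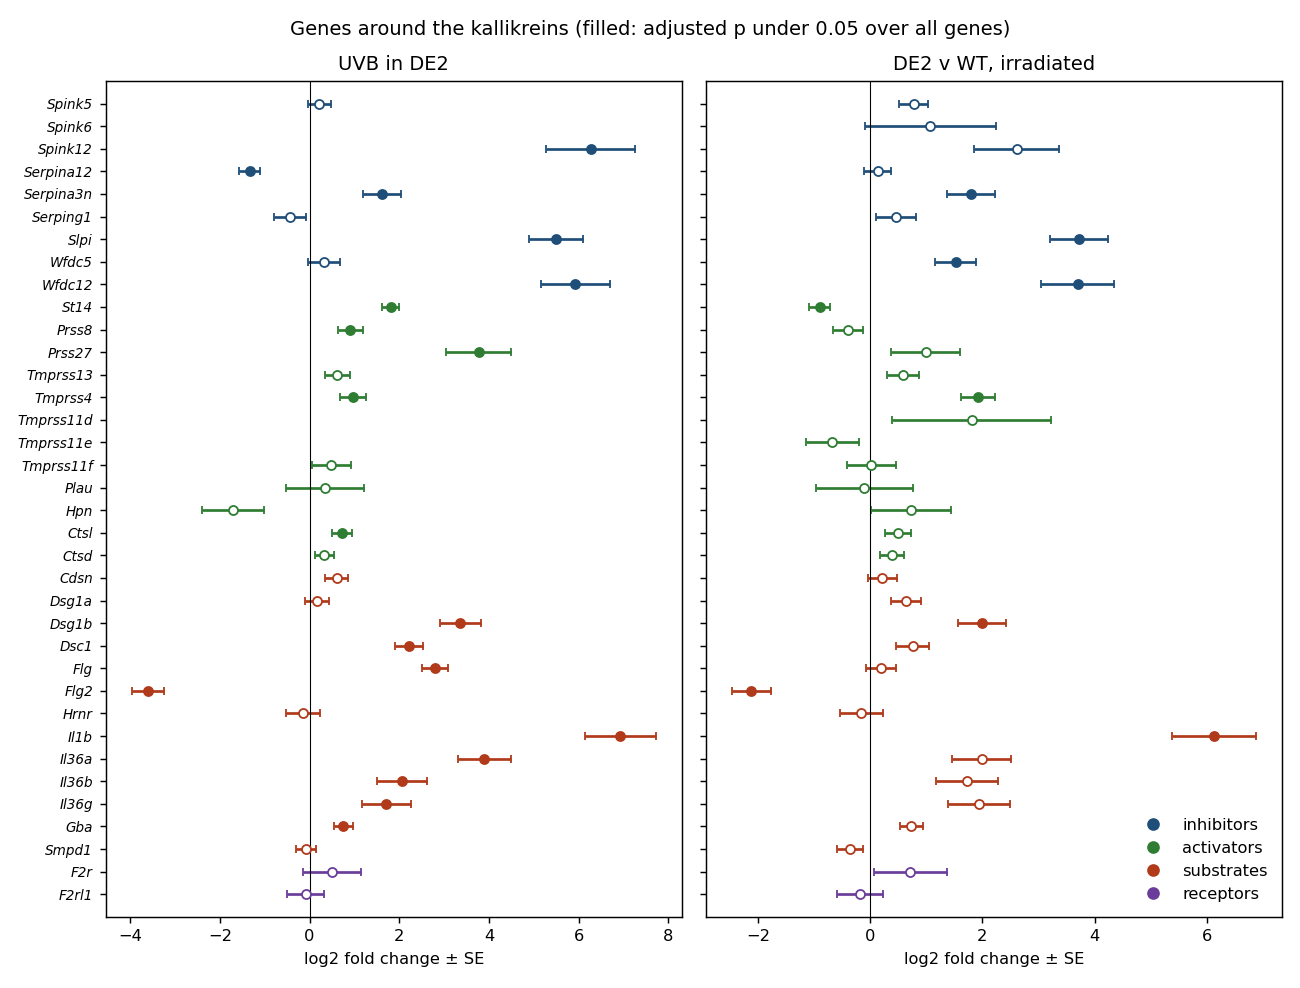
Log2 fold change with its standard error for listed inhibitors, activating proteases, candidate substrates and receptors, for UVB in DE2 skin (left) and irradiated DE2 against WT skin (right), filled where the adjusted p over all genes is under 0.05. Genes with 3 or fewer counts in a group compared are not drawn in that panel. Slpi and Il1b lie far to the right in both panels, Flg2 to the left in both, and Spink5 near 0 on the left.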

How the data were processed

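Skin RNA of 12 libraries was analysed from raw read counts per Ensembl gene, which the authors deposited unnormalized. The submitters' processing notes name the GRCm38 build and, among tools, HTSeq 2.0.2, SAMtools 1.16, Picard 3.1.0 and Trimmomatic 0.39. Aligner, annotation release, strand setting and duplicate handling: not given in the sources used here. Groups came from the genotype and treatment labels. Symbols were matched from GENCODE M21 for 53274 of 53465 identifiers. In R 4.3.3 with edgeR 4.0.16, 15126 genes passed the low-count filter (10 counts at the median depth, about 2.49 CPM, in 3 libraries), TMM factors were computed, and a robust quasi-likelihood model with 4 group means was fitted to all 12 libraries (8 residual degrees of freedom). P-values were adjusted by Benjamini-Hochberg over these 15126 genes, with a threshold of 0.05. Standard errors were worked back from the test statistic. The fit was tested on simulated counts. Exon lengths are unions of annotated exons. Depth sets the precision of Klk12, Klk13 and Klk14 in particular.

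The members and lists were chosen with earlier results of these data known. All 10 members are named. From each pathway list up to 4 genes with the smallest p were named, with Spink5, Cdsn and F2rl1 added for their known roles after their values were seen. The 8 most similar genes were named by correlation, and promoters shown for the members with the largest and smallest changes. Alternatives included other scalings, filters, DESeq2 1.42.0 and limma 3.58.1 (voom), covariates and leaving out libraries.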

Additional observations from a re-analysis of the deposited data

Results flagged for a closer look

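For 4 members the response to UVB differed between the genotypes by the test of the difference itself, the interaction term of the edgeR quasi-likelihood fit (3 libraries a group). The difference, DE2 response minus WT response on the log2 scale, was 4.65 for Klk13 (adjusted p = 0.00326). It was 3.55 for Klk6 (adjusted p = 5.77e-04), 3.35 for Klk10 (adjusted p = 1.96e-04) and 1.71 for Klk8 (adjusted p = 0.0316). Of all genes, 5.64% were called higher in the interaction. The Klk8 call held in 5 of the 12 fits that left out 1 library. For Klk6 and Klk10 the lower level in untreated DE2 than WT skin (-1.75 and -2.18 on the log2 scale) enters the value.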

How the results depend on the processing

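No paired analysis was possible because no label gives a library a replicate number or ties it to an animal. Of 1132 recomputed values for the members, 984 kept their direction and side of the threshold, 73 no longer passed, 42 newly passed and 33 changed sign. Alternatives that moved a count of members called by more than 1.5 times were as follows, and the cause was not tested. For UVB in WT (1 called), it was 3 with no filter, 0 with only the groups compared, 0 with the granular keratinocyte covariate, 2 without irradiated WT library 2 and untreated DE2 library 1, and 0 to 2 leaving out 1 library. With the hair follicle covariate it was 0 for UVB in DE2 (8 called), 1 for genotype with UVB (6 called), 0 for genotype without UVB (3 called) and 0 for the interaction (4 called). The interaction count was 8 with no filter and 7 with DESeq2. Leaving out 1 library gave 7 to 9 for UVB in DE2, 2 to 7 for genotype with UVB, 2 to 4 without UVB and 3 to 6 for the interaction.

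None of the sign changes passed the test. For UVB in WT, Klk5 was -0.022 with the granular covariate, and Klk14 was 0.22 with limma voom and 0.50 with the hair follicle covariate. With that covariate Klk5 was -0.009 and Klk11 -1.35 for UVB in DE2, Klk7 1.10 and Klk9 -0.67 for genotype without UVB, and Klk5 -0.13 and Klk11 -1.36 for the interaction. For genotype without UVB, total counts gave -0.11 for Klk5, -0.33 for Klk8 and -0.34 for Klk9. Leaving out irradiated WT library 2 and untreated DE2 library 1 gave -0.17, -0.14 and -0.10 for the same genes. Only the groups compared gave -0.018 for Klk8 and -0.023 for Klk9, and the muscle covariate -0.11 and -0.50. Leaving out 1 library gave -0.07 to 0.31 (Klk5) and -1.22 to 0.058 (Klk14) for UVB in WT. It gave -0.18 to 0.54 (Klk5), -0.33 to 0.24 (Klk8), -0.31 to 0.27 (Klk9) and -2.60 to 1.98 (Klk12) for genotype without UVB, and -0.033 to 0.68 (Klk5) for the interaction. With exon lengths of the basic annotation, the share of Klk6 in irradiated DE2 skin was 30.8%, and the other shares tried moved by less than their SD. RefSeq gene spans hold introns and were not used as lengths.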
